A study of Mus musculus with 8 samples.

Results

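The nuclear genes for subunits of the mitochondrial respiratory chain were followed in fibro-adipogenic progenitors (FAPs), the interstitial mesenchymal progenitors of skeletal muscle, after injury. Members were chosen by gene symbol and not by any measured value: the Nduf, Sdh, Uqcr, Cox4 to Cox8 and Atp5 families, without pseudogene labels. The rule took 84 of 55276 gene symbols, with 36 genes in complex I, 4 in complex II, 8 in complex III, 19 in complex IV and 17 in complex V. Complexes were assigned by symbol, so that Ndufa4, which is known to associate with complex IV, was counted with complex I, and Cox7a2l, a factor of supercomplex assembly, with complex IV. Cox6c2 is annotated as a pseudogene, but its symbol does not say so and it was kept.

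GFP+ FAPs were sorted from tibialis anterior muscle of C57Bl6 mice aged 4 to 6 months after freeze-pierce injury. Control mice were Osr1 flox/+ CAGG Cre+ and Osr1cKO mice were Osr1 flox/flox CAGG Cre+, and all received tamoxifen on the day of injury and the following days. There were 2 libraries per genotype at 3 days post injury (dpi) and 2 at 7 dpi, 8 in all. A library held 1 mouse at 3 dpi but a pool of 4 mice at 7 dpi. GFP is expressed from the recombined Osr1 allele, so sorted control cells were heterozygous for Osr1, and the CAGG driver expresses Cre in all cell types, not in FAPs alone. The day changed together with the pooling of mice, and their effects cannot be told apart. It was also not settled which day ran on which of the instruments named in the study's methods, since the labels give 1 read length for all libraries.

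The respiratory chain passes electrons from NADH (complex I) and from succinate (complex II) through complex III to oxygen at complex IV. Complexes I, III and IV pump protons across the inner mitochondrial membrane, and complex V, the ATP synthase, uses this gradient to make ATP. Most subunits are encoded in the nucleus, while a small core of complexes I, III, IV and V is encoded by mitochondrial DNA (mtDNA). Nuclear respiratory factor 1 (NRF1), ETS family factors, YY1 and the estrogen-related receptors (ERR) are known regulators of the nuclear genes.

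Promoters were read from RefSeq windows of the GRCm38.p6 assembly, which run from 250 bases before to 50 bases after the start of a gene. Windows were found for 68 members and not for 16, and some members had more than one, giving 73 windows. The NRF1 motif GCGCANGC was present on either strand in 24 (32.9%, against 9.95% of all 32851 windows). The ETS motif CCGGAAG was present in 17 (23.3%, against 8.86%), the YY1 motif AANATGGC in 17 (23.3%, against 6.05%) and the ERR motif TCAAGGTCA in 2 (2.74%, against 0.423%). None of these motifs was found in 27 member windows. A match describes letters and is not a bound site. The 200 bases before the start are printed for a pair of genes that fell between the days (Sdha, Atp5g3) and a pair that rose (Uqcrh, Ndufb4), picked after their values were seen. Capitals mark motif matches on either strand within the printed bases, which are NRF1 in Sdha and Ndufb4, ERR in Atp5g3 and ETS in Uqcrh. The whole windows held 1 NRF1 match in Atp5g3 and 4 in Ndufb4.
Sdha, chr13:74350241-74350440, minus strand: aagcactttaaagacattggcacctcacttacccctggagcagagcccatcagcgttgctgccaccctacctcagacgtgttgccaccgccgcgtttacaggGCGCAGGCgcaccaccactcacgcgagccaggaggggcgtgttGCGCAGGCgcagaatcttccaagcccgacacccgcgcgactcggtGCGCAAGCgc
Atp5g3, chr2:73911327-73911526, minus strand: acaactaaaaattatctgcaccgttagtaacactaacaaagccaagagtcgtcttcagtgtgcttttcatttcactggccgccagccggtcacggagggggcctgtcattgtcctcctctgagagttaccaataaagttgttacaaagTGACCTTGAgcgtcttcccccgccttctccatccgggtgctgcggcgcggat
Uqcrh, chr4:116075071-116075270, minus strand: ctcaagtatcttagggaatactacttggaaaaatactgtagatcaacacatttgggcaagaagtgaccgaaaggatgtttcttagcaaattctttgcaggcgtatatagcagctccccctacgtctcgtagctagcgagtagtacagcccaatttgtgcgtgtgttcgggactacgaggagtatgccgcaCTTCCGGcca
Ndufb4, chr16:37654369-37654568, minus strand: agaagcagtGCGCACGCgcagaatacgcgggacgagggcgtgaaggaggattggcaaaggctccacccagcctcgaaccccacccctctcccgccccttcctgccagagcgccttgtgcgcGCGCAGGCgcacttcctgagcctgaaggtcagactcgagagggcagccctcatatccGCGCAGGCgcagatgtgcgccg
Among the printed genes, NRF1 matches lay before Sdha, which fell, and before Ndufb4, which rose. Genes picked in this way cannot show how matches relate to the direction of change, which was not tested.

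Values were deposited as TPM, a share of all transcripts corrected for gene length. Depth, recovered from the steps between low values, was 36516603 to 51096602 fragments per library. Osr1 itself had 105 and 91 TPM in controls and 70.7 and 71.9 in Osr1cKO at 3 dpi, and 67.6 and 71.6 in controls and 64.4 and 60.8 in Osr1cKO at 7 dpi. The Osr1cKO libraries lay below the controls at both days (log2 fold change -0.45 at 3 dpi and -0.28 at 7 dpi), although the gene-level value also counts parts of the transcript outside the deletion. The FAP marker Pdgfra was at 254 to 365 TPM at 3 dpi and 197 to 229 at 7 dpi, and Ly6a, which encodes the FAP surface antigen Sca-1, at 2020.1 to 5407 and 1357 to 1839.7. The sum of 8 FAP markers was 26503 to 42205 TPM at 3 dpi and 47954 to 54061 at 7 dpi and consisted mostly of the collagens Col1a1 and Col3a1. Of the 8, 3 were called higher and 3 lower at 7 dpi in controls, and 2 higher and 1 lower in Osr1cKO. Between the genotypes at 3 dpi, 2 were called lower in Osr1cKO by unadjusted p. The 8 include Osr1, the deleted gene. Osr1 was itself among those called lower in Osr1cKO at 3 dpi, and among those lower at 7 dpi in controls. Markers of other cell types were low but moved with the day. The summed TPM of 10 myofiber markers was 12.7 to 18.9 at 3 dpi, and at 7 dpi 77.9 to 92.2 in controls and 53.4 to 53.5 in Osr1cKO, with 10 of 10 called higher at 7 dpi in controls and 7 in Osr1cKO. The summed TPM at 3 dpi and at 7 dpi was 5.0 to 7.93 and 13.2 to 40.4 for muscle stem cell, 8.05 to 16.1 and 16.5 to 21.5 for leukocyte, 17.2 to 44.3 and 46 to 70.5 for endothelial, 0.0 to 1.47 and 11.7 to 54.2 for erythroid and 6.31 to 13.4 and 21.2 to 29.6 for brown adipocyte markers. The most abundant marker by mean reached 13.4 TPM for muscle stem cell (Itga7), 17.4 for leukocyte (Cd68) and 58.4 for endothelial markers (Tek). For erythroid and brown adipocyte markers it reached 34.6 (Hbb-bs) and 29.1 TPM (Dio2). Pax7 did not exceed 2.3 TPM, Ptprc 0.216 and Ucp1 0.384. Control replicate 1 at 7 dpi stood apart with the highest level of the myogenic factor Myog (14.1 TPM, against 1.94 in control replicate 2). Cells positive for CD31, CD45 or TER-119, the surface markers of endothelial, leukocyte and erythroid cells, were gated out in the study's sorting scheme. The part of any such cells in the results was not tested. In such bulk libraries, fewer cells of a type and less RNA per cell cannot be told apart.

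A mean over 100 TPM was reached by 34 of 84 members, and one over 500 TPM by Atp5a1 and Atp5b, which form the catalytic head of the ATP synthase, and by the complex IV subunits Cox6a1 and Cox8a. The member of highest mean was Ndufa2 in complex I (175 TPM), Sdhd in complex II (162), Uqcrh in complex III (192), Cox6a1 in complex IV (590.3) and Atp5b in complex V (599). Levels between genes depend on the length used, since the exon length behind TPM was more than 2 times that of the coding transcript in 34 of 80 members. Atp5l, for example, had 6443 exon bases but a coding transcript of 544 bases, so that its mean of 11.7 TPM would be 139 per coding transcript length. A fixed length cancels where 1 gene is compared across libraries.

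Where subunits have tissue-specific paralogs, the ubiquitous form was the higher one throughout. Cox6a1 had 355 to 778 TPM, whereas the heart and muscle form Cox6a2 had 0.112 to 1.09. Cox8a had 314 to 725 TPM, the muscle form Cox8b 0.0 to 1.73, and the testis form Cox8c was listed at 0 in every library. The low members rested on few reads: Cox6a2 on 1 to 8 fragments per library and Cox8b on 0 to 6. Cox4i1 had 280.3 to 369 TPM and its paralog Cox4i2, known from lung, 0.798 to 3.36. Cox7a2 had 117 to 195 TPM, the muscle form Cox7a1 0.778 to 3.97, and the assembly factor Cox7a2l 118 to 170.2. Cox6b1 had 273 to 470.1 TPM and the testis form Cox6b2 2.55 to 7.03. Thus no muscle form reached the level of its ubiquitous counterpart in any library. Of the genes for the c-ring of the ATP synthase, which encode the same mature protein, Atp5g3 was highest (102 to 307 TPM), followed by Atp5g2 (49.2 to 99.3) and Atp5g1 (18.9 to 48.5). Cox6a2, Cox7b2, Cox8b and Cox8c were too low to be tested, which left 80 members, or 79 at 7 dpi, where Cox7a1 was also left out.

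The comparison of the days addressed how FAPs changed between an early and a later phase of regeneration. Transcripts of the nuclear subunits were lower at 7 than at 3 dpi in both genotypes. Summed over all members, deposited TPM was 10788 and 11821 in the control libraries at 3 dpi and 7488 and 6867 at 7 dpi, or 63.5% of the earlier mean. In Osr1cKO it was 11968 and 12456 at 3 dpi and 8613 and 8610.5 at 7 dpi, or 70.5%. Every 7 dpi library lay below every 3 dpi library. After scaling of the libraries, the shares were 67% and 67.5%. Complex II kept the smallest share, with 51.4% in controls and 58% in Osr1cKO, followed by complex V with 57.7% and 63.7%. The shares of complexes I, III and IV were 67.5%, 68.1% and 65.6% in controls and 74.8%, 75.4% and 73.7% in Osr1cKO. These sums are descriptions, dominated by the abundant members, and were not tested.

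**Figure D1:**
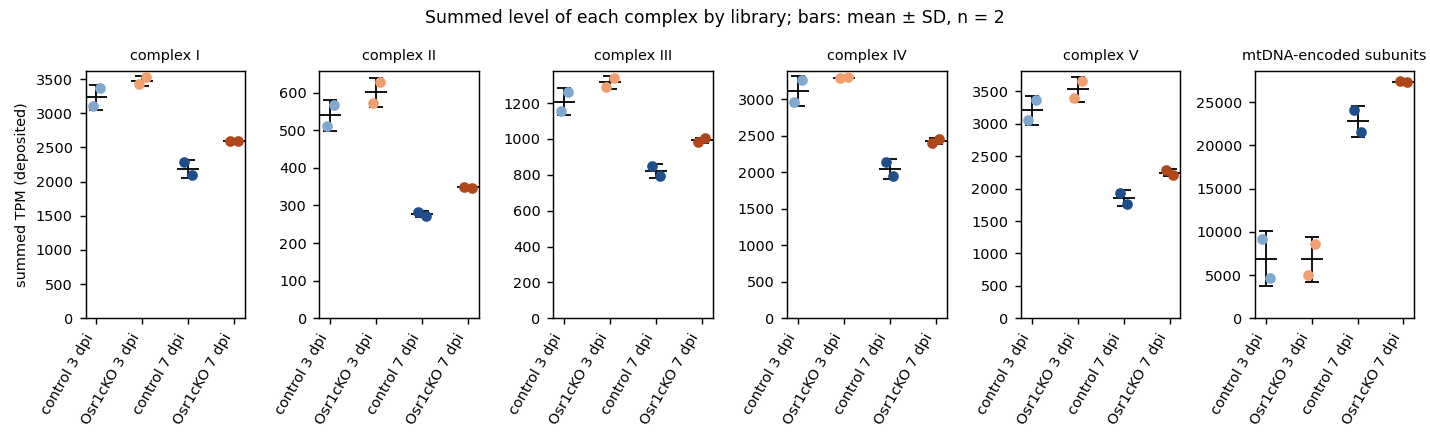
Summed deposited TPM (vertical axes, from 0) of the members of each complex and of the mtDNA-encoded subunits, with 1 point per library and the mean ± SD of 2 libraries per group. In all 5 nuclear complexes the 7 dpi libraries lie below the 3 dpi libraries, while the mtDNA-encoded sum lies above.

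Each gene was then tested with limma over all 8 libraries, with calls at a Benjamini-Hochberg adjusted p below 0.05 and more than a 1.2-fold change. In controls, 45 of 80 members fell and 3 rose between 3 and 7 dpi, and in Osr1cKO 46 fell and 3 rose. Among all 17371 genes tested, 24.1% fell and 21.3% rose in controls, and 21.9% fell and 18.2% rose in Osr1cKO. The median log2 fold change of the members was -0.46 in controls and -0.50 in Osr1cKO, against 0.018 and 0.024 over all genes. Both genotypes shared 44 of the genes that fell and all 3 that rose. Cox6b1 was called lower in controls alone and Ndufb2 and Ndufs8 in Osr1cKO alone, but the test of the difference between genotypes called none of these. In deposited TPM, every 7 dpi library was below every 3 dpi library for 49 of 84 members and above for 7, while the days overlapped for 28. Of the 80 tested members these were 49 and 6, against 27.1% and 25% of all genes.

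**Figure D2:**
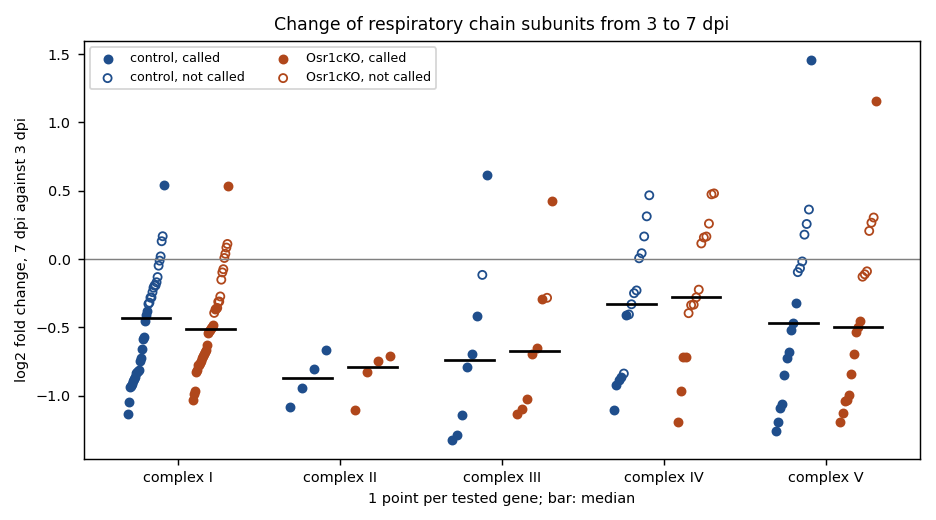
Log2 fold change of scaled TPM from 3 to 7 dpi (vertical axis) of each tested member, by complex, in control and Osr1cKO FAPs, with filled points for called genes. All 4 genes of complex II lie below 0, while complexes I, III and V each hold 1 gene called higher.

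**Figure D3:**
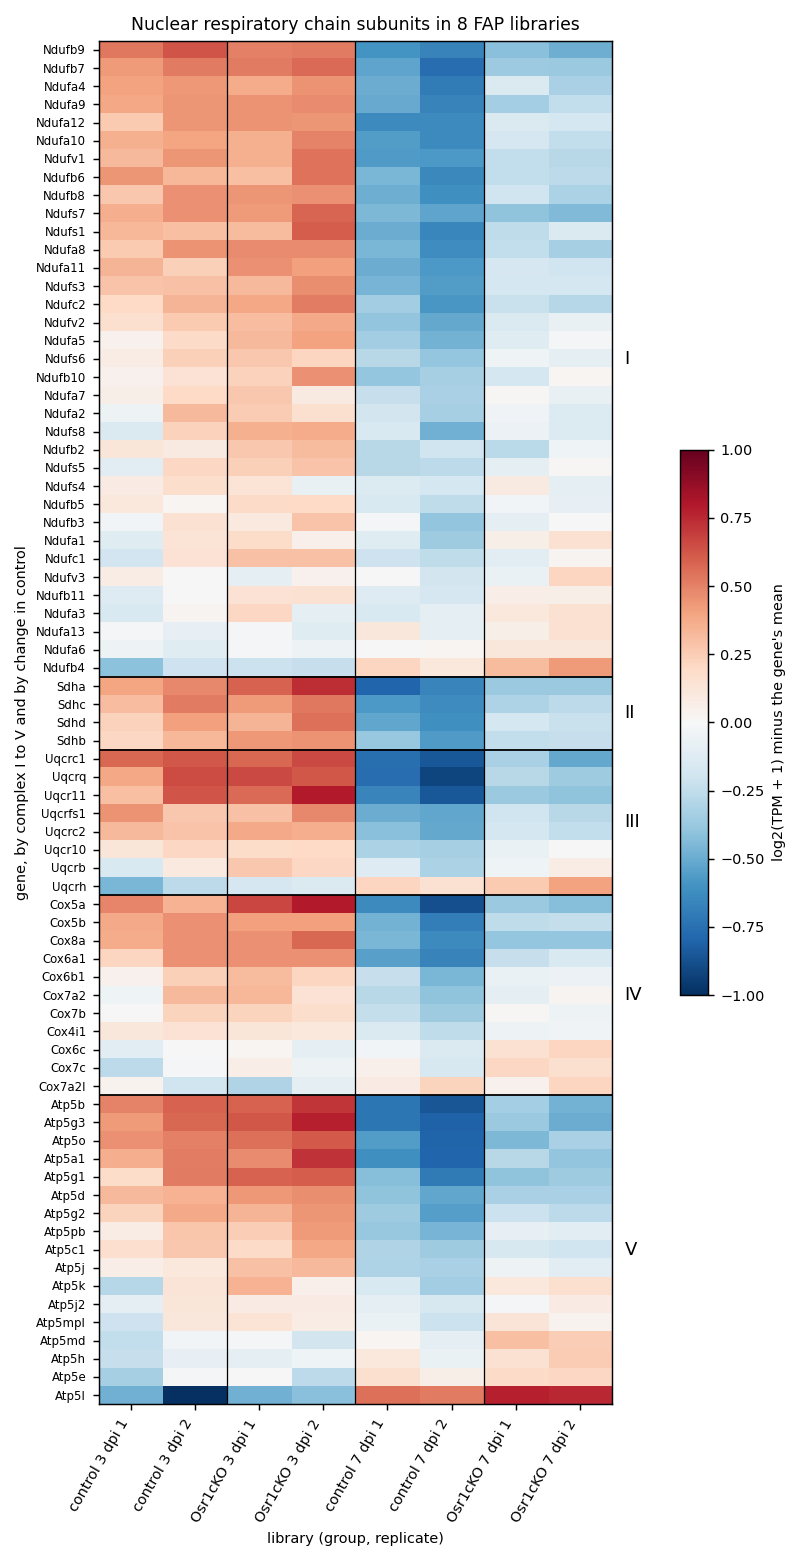
Log2(deposited TPM + 1) of the members with a mean of at least 6 TPM, 1 of them left out (rows, by complex), each minus its own mean over the 8 libraries (columns). Most rows are above their mean at 3 dpi and below it at 7 dpi, with Atp5l, Uqcrh and Ndufb4 among the exceptions.

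In complex II, which oxidises succinate in the TCA cycle, all 4 genes fell in both genotypes. Sdha, the flavoprotein with the catalytic site, had 145 and 154 TPM in controls and 167 and 184 in Osr1cKO at 3 dpi, and 63.2 and 69.6 in controls and 84.9 and 85.1 in Osr1cKO at 7 dpi. The days did not overlap, and Sdha fell with a log2 fold change of -1.08 ± 0.10 (SE) in controls (limma, adjusted p = 0.000413) and -1.10 ± 0.10 in Osr1cKO (adjusted p = 0.000629). The iron-sulfur subunit Sdhb had 94.4 and 103 TPM in controls and 111 and 112 in Osr1cKO at 3 dpi, and 62.5 and 55 in controls and 68.8 and 69.5 in Osr1cKO at 7 dpi. On the fitted scale Sdhb fell by 36.9% in controls and by 40.3% in Osr1cKO. The membrane anchor Sdhc had 88.9 and 103 TPM in controls and 96.8 and 104 in Osr1cKO at 3 dpi, and 47.7 and 45.9 in controls and 57.5 and 59.5 in Osr1cKO at 7 dpi. The other anchor, Sdhd, had 182 and 207 TPM in controls and 198 and 228 in Osr1cKO at 3 dpi, and 109 and 102 in controls and 138 and 133 in Osr1cKO at 7 dpi. Neither anchor overlapped between the days, and they fell by 47.9% and 42.7% in controls and by 43.7% and 38.8% in Osr1cKO.

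In complex III, 6 of 8 genes fell and 1 rose in each genotype. Uqcrc1, a core subunit on the matrix side, had 129 and 134 TPM in controls and 129 and 137 in Osr1cKO at 3 dpi, and 50.9 and 47.6 in controls and 68.8 and 60.4 in Osr1cKO at 7 dpi. In controls this was the largest fall of any member (log2 fold change -1.32 ± 0.11, limma, adjusted p = 0.000345), and in Osr1cKO it was -1.10 ± 0.11 (adjusted p = 0.000928). The small subunits Uqcrq and Uqcr11 fell by 59% and 54.6% in controls and by 50.8% and 54.3% in Osr1cKO. Uqcrfs1, the Rieske iron-sulfur protein, fell by 42.1% and 38.1%. Uqcrh, the hinge protein next to cytochrome c1, went the other way, with 137 and 157 TPM in controls and 168 and 171 in Osr1cKO at 3 dpi, and 218 and 209 in controls and 227 and 249.5 in Osr1cKO at 7 dpi. It rose without overlap of the days (0.62 ± 0.11, limma, adjusted p = 0.00466 in controls and 0.42 ± 0.11, adjusted p = 0.0236 in Osr1cKO). In Osr1cKO the call was lost when any 1 of the 4 Osr1cKO libraries was left out (adjusted p from 0.0709 to 0.111).

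In complex I, 20 of 36 genes fell and 1 rose in controls, and 22 fell and 1 rose in Osr1cKO. Ndufb9, an accessory subunit of the membrane arm, had 113 and 122 TPM in controls and 111 and 113 in Osr1cKO at 3 dpi, and 51.4 and 48.8 in controls and 58.2 and 55.6 in Osr1cKO at 7 dpi. It fell by 54.5% in controls (limma, adjusted p = 0.000388) and by 51% in Osr1cKO (adjusted p = 0.00082). Of the core subunits that carry electrons from NADH, Ndufv1, the flavin-binding subunit, fell by 45.5% and 41.5%, and the iron-sulfur subunits Ndufs1 by 43.2% and 39.4% and Ndufs7 by 43.5% and 49.6%. Ndufv2 and a further core subunit, Ndufs3, which holds no iron-sulfur cluster, fell by 33.4% and 39.6% in controls and by 30.1% and 35.5% in Osr1cKO. The iron-sulfur subunit Ndufs8 had 65.7 and 85.7 TPM in controls and 93.5 and 94.5 in Osr1cKO at 3 dpi, and 65.5 and 51.9 in controls and 69.8 and 66 in Osr1cKO at 7 dpi. Over both genotypes its days overlapped, and it was called lower in Osr1cKO (-0.53 ± 0.18, limma, adjusted p = 0.0491) but not in controls (-0.28 ± 0.18, adjusted p = 0.226). Ndufa4 fell by 47.8% in controls and by 38.8% in Osr1cKO. By contrast, the most abundant gene, Ndufa2, had 167 and 216 TPM in controls and 206 and 193 in Osr1cKO at 3 dpi, and 152 and 137 in controls and 169 and 157 in Osr1cKO at 7 dpi and was called in neither genotype (limma, adjusted p = 0.142 and 0.114). Ndufa13 had 115 to 139.6 TPM over all libraries and was not called either.

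Ndufb4, a further subunit of the membrane arm, was the riser of complex I, with 8.72 and 10.2 TPM in controls and 10.1 and 10.04 in Osr1cKO at 3 dpi, and 14 and 12.9 in controls and 15.1 and 16.4 in Osr1cKO at 7 dpi. The days did not overlap, on 208 to 301 fragments per library (0.54 ± 0.14, limma, adjusted p = 0.0184 in controls and 0.53 ± 0.14, adjusted p = 0.0225 in Osr1cKO). These calls were among the least stable. In controls the call was lost without control replicate 1 at 3 dpi (adjusted p = 0.052) and without control replicate 1 (0.105) or 2 (0.0562) at 7 dpi, and in Osr1cKO without any 1 of its 4 libraries.

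Complex IV was divided, with 5 of 15 tested genes lower in controls, 4 in Osr1cKO and none called higher. These shares, 33.3% and 26.7%, lay near the 24.1% and 21.9% of all genes called lower. Cox5a, which lies next to Cox4 in the enzyme, had 103 and 93.3 TPM in controls and 117 and 127 in Osr1cKO at 3 dpi, and 46.5 and 39.2 in controls and 56.1 and 54.1 in Osr1cKO at 7 dpi. Its log2 fold change was -1.10 ± 0.12 in controls (limma, adjusted p = 0.000608) and -1.19 ± 0.12 in Osr1cKO (adjusted p = 0.000766). Cox5b, Cox6a1 and Cox8a fell by 47.3%, 45% and 45.8% in controls and by 39.1%, 39.1% and 48.8% in Osr1cKO. Cox4i1, the largest nuclear subunit, had 362 and 369 TPM in controls and 363 and 360.2 in Osr1cKO at 3 dpi, and 302 and 280.3 in controls and 322 and 325 in Osr1cKO at 7 dpi. Its days did not overlap, but the difference was small and not called (-0.25 ± 0.10, limma, adjusted p = 0.087 in controls and 0.124 in Osr1cKO). Cox7a2l had 149 and 127 TPM in controls and 118 and 137 in Osr1cKO at 3 dpi, and 154 and 170.2 in controls and 151 and 169 in Osr1cKO at 7 dpi. It was thus above its 3 dpi values in every 7 dpi library but was not called (limma, adjusted p = 0.0536 in controls and 0.10 in Osr1cKO).

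In complex V, 10 of 17 genes fell and 1 rose in each genotype. The catalytic subunit Atp5b had 774 and 828 TPM in controls and 826 and 902 in Osr1cKO at 3 dpi, and 332 and 302 in controls and 432 and 394 in Osr1cKO at 7 dpi. It fell by 58.2% in controls (limma, adjusted p = 0.000636) and by 54.2% in Osr1cKO (adjusted p = 0.0013), and its partner Atp5a1 by 52.2% and 49.9%. All 3 genes of the c-ring, the rotor in the membrane, fell. Atp5g3 had 241 and 268 TPM in controls and 276 and 307 in Osr1cKO at 3 dpi, and 108 and 102 in controls and 139 and 127 in Osr1cKO at 7 dpi, a fall of 56.1% and 56.3%. Atp5g1 fell by 44.4% and 51.4%, and Atp5g2 by 37.5% and 38.3%. Atp5e, Atp5h, Atp5j2, Atp5k, Atp5md and Atp5mpl were called in neither genotype. Atp5l (subunit g, in the membrane part) was the riser, with 7.2 and 3.92 TPM in controls and 7.18 and 7.54 in Osr1cKO at 3 dpi, and 15.8 and 15.4 in controls and 18.6 and 18.3 in Osr1cKO at 7 dpi. The days did not overlap (1.46 ± 0.22, limma, adjusted p = 0.00206 in controls and 1.16 ± 0.22, adjusted p = 0.00623 in Osr1cKO).

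Small subunits often have near-identical copies elsewhere in the genome, between which reads can be lost or shared, and how the authors treated such reads was not given. A copy was counted where at least 75 bases of any coding transcript matched another annotated gene at 95% identity or more. This held for 27 of 83 members. Such a match need not be a copy of the whole gene. In Ndufc1 it covered at most 10.6% of a coding transcript and lay in 41 other genes, 0 of them annotated as pseudogenes. Atp5md matched 153 other genes, of which 6 were pseudogenes. Members with a copy had a median change of -0.24 in controls and -0.31 in Osr1cKO, and those without one -0.71 and -0.69. All 3 risers were among those with a copy, over 72.2% of the transcript for Atp5l, 40.2% for Ndufb4 and 22.6% for Uqcrh. With only the transcript of longest coding sequence compared, 24 members had a copy, Uqcrh had none, and the medians were -0.28 and -0.30 with a copy and -0.66 and -0.65 without. Both definitions were chosen after the day results were known, and the part of copies in the changes was not tested. Across 76 members, the change also varied with the length of the coding transcript (Spearman's rho -0.32 in controls and -0.32 in Osr1cKO, with longer ones lower at 7 dpi). For exon length rho was -0.18 and -0.20 (73 members), for mean TPM -0.14 and -0.12, and for the share copied 0.28 and 0.29. These values are descriptions, since all members share the same libraries, and the properties were not separated.

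The subunits encoded by mtDNA, which lie outside the symbol rule, were higher at 7 dpi. Their summed TPM was 9169.7 and 4623 in controls and 5002 and 8623 in Osr1cKO at 3 dpi, and 24029 and 21485 in controls and 27421 and 27289 in Osr1cKO at 7 dpi. The days did not overlap, although libraries of 1 group also differed widely at 3 dpi. Of 12 tested genes, 10 rose in controls and 11 in Osr1cKO, and none fell, while mt-Atp8 was too low to be tested. mt-Cytb, the mtDNA-encoded core of complex III, had 1363 and 842 TPM in controls and 1031 and 1602 in Osr1cKO at 3 dpi, and 6025 and 5344 in controls and 6695 and 6903 in Osr1cKO at 7 dpi. It rose by 2.48 ± 0.30 on the log2 scale in controls (limma, adjusted p = 0.000927) and by 2.34 ± 0.30 in Osr1cKO (adjusted p = 0.00161). The complex I subunit mt-Nd1 had 1267 and 636 TPM in controls and 718 and 1476 in Osr1cKO at 3 dpi, and 3323 and 3036 in controls and 4032 and 3693 in Osr1cKO at 7 dpi and rose by 1.90 and 1.84.

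mtDNA-encoded genes also have copies in the nucleus. mt-Cytb, mt-Nd1, mt-Nd6 and mt-Atp8 had none by the same criterion, although mt-Atp8 was too low to be tested. By contrast, mt-Co2, mt-Co3, mt-Atp6, mt-Nd4l and mt-Nd3 were copied over 99% or more of their length. These 5 genes were also low, and mt-Co2, which reached the highest value among them, had 0.46 to 62.9 TPM, while mt-Co1 had 1957 to 10925 although it was copied over 100.0% of its length at 99.8% identity. mt-Nd6 had 377 and 348 TPM in controls and 212 and 281 in Osr1cKO at 3 dpi, and 452 and 452 in controls and 504 and 451 in Osr1cKO at 7 dpi and was called higher at 7 dpi in Osr1cKO (limma, adjusted p = 0.00386) but not in controls (adjusted p = 0.066). It was also the mtDNA-encoded gene called lower in Osr1cKO at 3 dpi (-0.57 ± 0.17, unadjusted p = 0.02 with limma). The part of copies in these values was not tested.

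**Figure D4:**
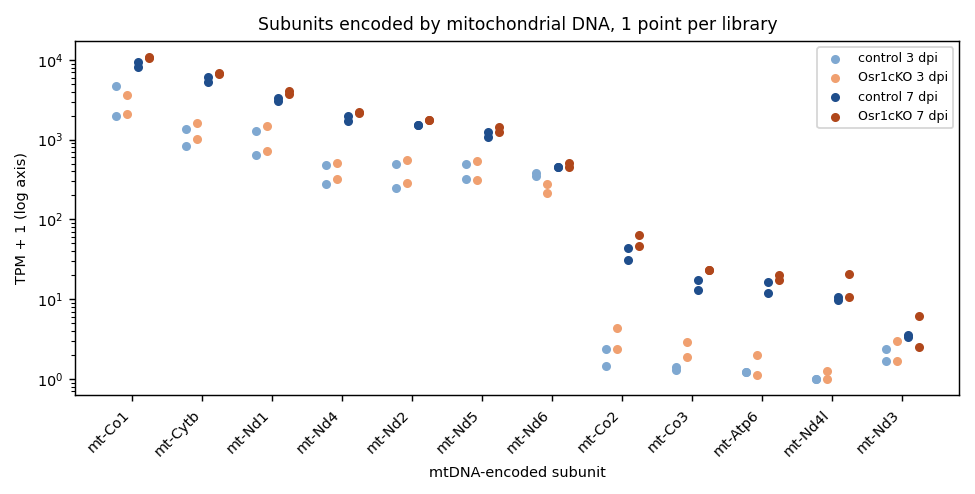
TPM + 1 (log axis) of the tested mtDNA-encoded subunits, with 1 point per library and the groups by colour. For mt-Cytb, mt-Nd1 and mt-Co1 the 7 dpi libraries lie above all 3 dpi libraries, and mt-Co2, mt-Co3, mt-Atp6, mt-Nd4l and mt-Nd3 lie far below the other genes.

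Of 18 TCA cycle genes, 17 fell and none rose in each genotype, with medians of -0.68 in both. Cs, the citrate synthase at the entry of the cycle, had 168 and 192 TPM in controls and 188 and 212 in Osr1cKO at 3 dpi, and 65.6 and 60.2 in controls and 86.3 and 80.4 in Osr1cKO at 7 dpi. Its log2 fold change was -1.42 ± 0.13 in controls (limma, adjusted p = 0.000388) and -1.31 ± 0.13 in Osr1cKO. Of 77 mitochondrial ribosomal protein genes, 64 fell and 1 rose in controls, and 67 fell and none rose in Osr1cKO. Among 50 assembly factors, 26 fell and 3 rose in controls, and 28 fell and none rose in Osr1cKO. Cox15, which is needed to make heme a for complex IV, fell with log2 fold changes of -1.18 and -1.11. Of 19 regulators of biogenesis and mtDNA transcription, 6 fell and 2 rose in controls, and 5 fell and 2 rose in Osr1cKO. The shares that fell, 31.6% and 26.3%, were near those of all genes (24.1% and 21.9%). Polrmt, the RNA polymerase of mitochondria, had 14 and 19.1 TPM in controls and 17.5 and 17.9 in Osr1cKO at 3 dpi, and 7.05 and 5.13 in controls and 8.7 and 6.73 in Osr1cKO at 7 dpi. It fell in both genotypes (limma, adjusted p = 0.00505 and 0.00765), while mtDNA-encoded transcripts rose. Among the regulators that rose in Osr1cKO was Polg2 (1.60 ± 0.32, limma, adjusted p = 0.00785). In the Osr1cKO libraries Polg2 had 2.85 and 2.33 TPM at 3 dpi and 7.66 and 13.7 at 7 dpi. The control libraries were also higher at 7 dpi without overlap, with 5.01 and 2.4 TPM at 3 dpi and 7.73 and 9.63 at 7 dpi. Of 6 subunits and carriers outside the symbol rule, 3 fell in controls and 4 in Osr1cKO, among them the cytochromes Cyc1 (-1.24 and -1.20) and Cycs (-1.15 and -0.97).

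The genotype comparison addressed whether loss of Osr1 altered these genes within a day. At 3 dpi, 1 of 80 members was called higher in Osr1cKO and 1 lower by the study's threshold for this day (unadjusted p below 0.05 and more than a 1.2-fold change), against 2.38% and 3.89% of all 15699 genes. The gene called higher was Cox5a, with 103 and 93.3 TPM in controls and 117 and 127 in Osr1cKO. The groups did not overlap (0.31 ± 0.12, limma, unadjusted p = 0.0491, adjusted p = 0.784). The muscle form Cox7a1 was called lower, at 3.15 and 3.97 TPM in controls and 1.62 and 2.43 in Osr1cKO (-0.60 ± 0.23, limma, unadjusted p = 0.0452). Neither passed an adjusted p of 0.1, and both calls were lost without control replicate 2 or without either Osr1cKO library. Ndufa5 of complex I (0.24 ± 0.12) and Atp5j of complex V (0.22 ± 0.11) followed Cox5a by p, and Cox6b2 (-0.35 ± 0.41) and Cox7a2l (-0.11 ± 0.14) followed Cox7a1, none of them called. Cox6b2 had 7.03 and 2.55 TPM in the control libraries, and its difference was 0.23 when the first was left out and -0.94 when the second was.

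Fitted values nevertheless lay mostly to 1 side at 3 dpi, with 68 of 80 members higher in Osr1cKO and a median of 0.096, against 0.0070 over all genes. Its size depended on the control libraries, since the median fell to 0.018 when control replicate 1 was left out and reached 0.17 when control replicate 2 was. The genotypes did not overlap, with Osr1cKO higher, for 28 members, against 18.2% of all genes. All 8 genes of complex III and all 17 of complex V had higher fitted values in Osr1cKO, but only 8 of 15 in complex IV. Outside the complexes, Ucp2, a carrier of the inner membrane, differed far more, with 51.5 and 62.3 TPM in controls and 8.51 and 5.07 in Osr1cKO at 3 dpi, and 8.58 and 8.65 in controls and 8.79 and 8.85 in Osr1cKO at 7 dpi. Ucp2 was called lower in Osr1cKO at 3 dpi (-2.92 ± 0.27, limma, unadjusted p = 0.000118, adjusted p = 0.478), although the test of the difference between days was not past its threshold (adjusted p = 0.141). Atpif1, the inhibitor of the ATP synthase, was called higher in Osr1cKO at 3 dpi (0.37 ± 0.11, limma, unadjusted p = 0.0235). By the same unadjusted threshold, of the assembly factors 1 was called higher (Sdhaf1 for complex II, 0.83 ± 0.28), of the regulators 1 lower (Mterf2, -1.18 ± 0.28), and of the mitochondrial ribosomal proteins 1 higher and 2 lower. Of the TCA cycle genes, 18 of 18 were higher at each day by fitted value and none was called. At 7 dpi, no gene of these lists or of the mtDNA-encoded subunits was called at an adjusted p below 0.1.

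At 7 dpi, none of the 79 tested members was called by limma at an adjusted p below 0.1. Of all 16578 genes, 0.0181% were called higher and 0.0483% lower. With limma-voom on recovered fragments 0 members were called, but Atp5md, Atp5o and Atp5pb, for which no length was found, were left out. At an unadjusted p below 0.05, Ndufa12, Uqcrq and Cox6a1 were higher and none was lower, against 5.21% and 5.91% of all genes. Ndufa12, an accessory subunit of complex I, had 31.1 and 31.2 TPM in controls and 44.1 and 43.3 in Osr1cKO (0.35 ± 0.079, limma, adjusted p = 0.271). Uqcrq had 44.7 and 40.1 TPM in controls and 62.9 and 59.6 in Osr1cKO (0.39 ± 0.097, limma, adjusted p = 0.287). Cox6a1 had 389 and 355 TPM in controls and 482 and 509 in Osr1cKO (0.28 ± 0.088, limma, adjusted p = 0.333). The genotypes did not overlap for any of these 3 genes, but their differences did not pass the correction. On the other side, Cox6b2 (-0.33 ± 0.15), Cox7a2l (-0.15 ± 0.083) and Ndufs7 (-0.059 ± 0.086, and 0.069 without scaling) had the smallest p among lower values. Summed myofiber markers were also lower in Osr1cKO at this day (given above), although 0 of 10 were called, and their part in these differences was not tested.

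By fitted value, 72 of 79 members were higher in Osr1cKO at 7 dpi, with a median of 0.13 against 0.0046 over all genes. The median was 0.070 when control replicate 2 was left out and 0.20 when control replicate 1 was, and ranged by complex from 0.10 (complex V) to 0.20 (complex II). In deposited TPM the genotypes did not overlap, with Osr1cKO higher, for 72 members, but the same held for 42.8% of all genes. Without scaling, the median over all genes moved to 0.11 and that of the members to 0.25, with 77 members higher. The summed TPM of all members in Osr1cKO was 120.0% of the control mean as deposited and 111% after scaling. For 27 of 79 members, among them Sdha, Sdhb, Cox5a, Cox6a1, Atp5g1, Atp5g3, Ndufa12 and Uqcrh, the Osr1cKO libraries lay above the controls at both days, and for 0 below at both, against 10.4% and 2.53% of all genes tested at both. Ndufb9 alone was without overlap in opposite directions, lower in Osr1cKO at 3 dpi and higher at 7 dpi.

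**Figure D5:**
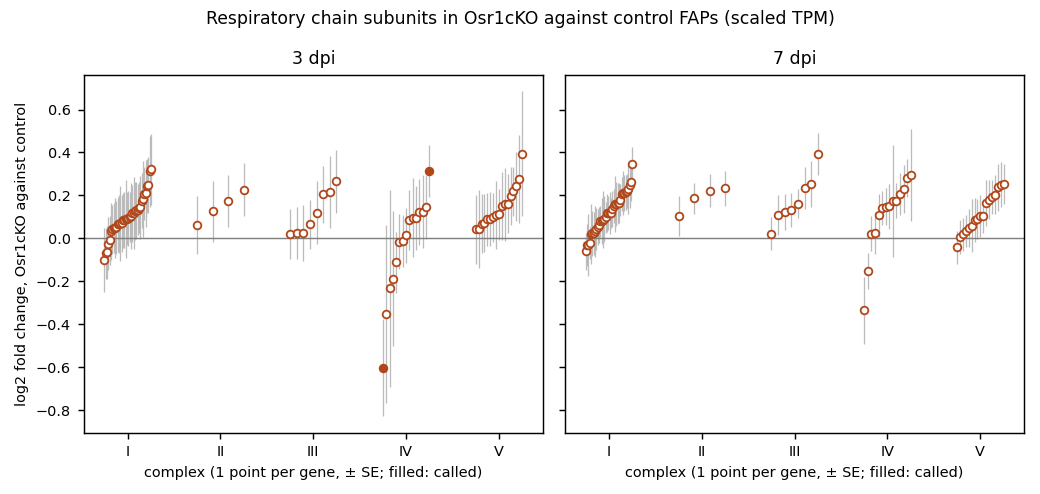
Log2 fold change of scaled TPM, Osr1cKO against control, at 3 and at 7 dpi for each tested member, by complex, with 1 point per gene ± SE and filled points for called genes. Most points lie slightly above 0 at both days, with Cox5a and Cox7a1 called at 3 dpi and none at 7 dpi.

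Whether the change between the days differed by genotype was tested as an interaction over all 8 libraries. No member passed an adjusted p of 0.05 with limma and neither did any other gene (0.0%), and 0 of 80 members had an unadjusted p below 0.05, against 6.78% of all genes. limma-voom on recovered fragments, again without Atp5md, Atp5o and Atp5pb, called 0. The smallest adjusted p of a member was 0.864. The members of smallest p were Ndufa12 (0.24 ± 0.15), Ndufa10 (0.20 ± 0.15) and Uqcrc1 (0.22 ± 0.16) among those whose change was higher in Osr1cKO than in controls and Ndufc1 (-0.26 ± 0.20), Uqcrh (-0.20 ± 0.16) and Ndufb2 (-0.23 ± 0.21) among those where it was lower. The differences lay between -0.30 and 0.50 (log2), with a median SE of 0.17. The median over the members was 0.019, and it became 0.11 when control replicate 1 at 3 dpi was left out, -0.070 without control replicate 2 at that day, and 0.10 without control replicate 1 at 7 dpi.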

How the data were processed

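RNA-seq of 8 FAP libraries, 2 per genotype and day, was analysed from 1 deposited table per library. The authors aligned reads to mm10 with STAR, normalised fragment counts with DESeq2 and deposited TPM per gene symbol. The counter, its annotation and its use of strand were not given in the sources used here, and 26 members have exons over a gene on the opposite strand. The members, lists and rules were chosen with earlier results of these data known. Of 55385 rows, 109 further rows of repeated symbols were dropped, a second Atp5o row among them. Exon lengths came from GENCODE mouse release 21 (GRCm38). With these, 98.7% to 98.9% of values below 50 fragments were whole to within 0.02. TPM are not counts, so limma 3.58.1 (R 4.3.3; lmFit, eBayes with trend) was run on log2(TPM + 1) after scaling by a 30% trimmed mean of log ratios. Fold changes are on this scale and understate those of low genes. Genes were tested with 10 or more recovered fragments in 2 libraries and 15 summed over those fitted, or a mean TPM of 1 where no length was found. Each day was fitted on its 4 libraries, and the days and the interaction on all 8. Genotype thresholds followed the study's methods. With 2 libraries per group, p-values rest on the spread between these libraries, which eBayes moves towards that of all genes. The fits over all 8 libraries assume a common spread for libraries of single mice and of pools. The procedure was tested on data simulated for the genotype comparison at the later day and for the day comparison in controls. Only the outcome of the former is described here. The simulation gave all genes and libraries the same spread, so it did not cover differences between libraries of single mice and of pools. For the genotype comparison at the later day, unchanged genes were called there beside the changed ones. The share of false calls in that comparison may therefore exceed the limit set by its adjusted p. Values of 1 member are not reported here, and it was kept in counts and sums. Copies were searched with BLAST 2.17.0. Named genes were the paralog sets, the Sdh genes, the highest member of each complex, the 3 members of smallest p per direction and comparison, members without overlap at both days, the mtDNA-encoded subunits and up to 2 genes per list and comparison; other genes were named after their values were seen. Alternatives were other scalings, pseudocount, filters, limma-voom, length centring, a replicate block, other libraries in the fit, other thresholds and leaving out each library. Genes for which no length was found, among them Atp5md, Atp5o and Atp5pb, were left out of limma-voom.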

Additional observations from a re-analysis of the deposited data

How the results depend on the processing

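The member medians kept their direction under the alternatives run for both days and for both genotype comparisons, while the interaction median, near 0, did not. The low paralogs rest on few fragments. At 3 dpi, where 2 members were called, 1 was called without scaling, 1 with median-of-ratios scaling and 4 with all 8 libraries in the fit. There were 0 with a pseudocount of 0.1, with a minimum mean TPM of 1, with limma-voom and at an adjusted p below 0.1, and 0 to 7 when 1 library was left out. At 7 dpi, 3 were called at an unadjusted p in place of 0, and the median was 0.25 without scaling. The day median in controls (-0.46) was -0.63 with centring on exon length, -0.69 or -0.66 without members with a copy (any coding transcript, or the one of longest coding sequence), and -0.60 to -0.39 when 1 library was left out. In Osr1cKO (-0.50) it was -0.44 without scaling, -0.43 with the TPM minimum, -0.60 with length centring, and -0.68 or -0.59 without copies (Cox6c2, with no coding transcript to compare, was kept in these medians but is in neither group of those with and without a copy given above). Day calls numbered 39 to 56 in controls and 38 to 56 in Osr1cKO when 1 library was left out. The interaction median was 0.16 without scaling and -0.070 to 0.11 when 1 library was left out. Of the values of single genes, 2 reversed: Cox6b2 at 3 dpi (0.23 without control replicate 1, with -0.94 without control replicate 2) and Ndufs7 at 7 dpi (0.069 without scaling). The cause was not tested.

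The labels give same-numbered libraries only a shared replicate number. Their deviations correlated at -0.12 between genotypes at 3 dpi and at 0.066 at 7 dpi, and at -0.14 between the days in controls. Each value rests on a single difference between replicates per group, so it cannot show whether same-numbered libraries were paired. With the replicate number as a block, 0 members were called at 3 dpi, 0 at 7 dpi, 47 between days in controls, 46 in Osr1cKO and 0 for the interaction. Crossed numbers, tried after seeing the data, gave 0 at 3 dpi and 53 between days in controls.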
